A study of Mus musculus with 12 samples.

Results

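The genes described here are 10 of the tumour necrosis factor (TNF) system: the ligands Tnf, Tnfsf9, Tnfsf10 and Tnfsf15, the receptors Tnfrsf1a, Tnfrsf1b, Fas and Cd40, and the TNF-induced genes Tnfaip2 and Tnfaip3. They were chosen by gene symbol, with earlier results of these data known, and all 10 were found among the 54446 gene identifiers of the deposited count table. RNA sequencing counted their transcripts in macrophages that had been grown from mouse femur and tibia marrow in RPMI medium, with the growth factor M-CSF. Both genotypes carried loxP-flanked Nlrc3 alleles. The wild type (WT) was LysM-Cre- and the knockout (KO) LysM-Cre+, so that Cre recombinase under the myeloid LysM promoter could delete Nlrc3, a NOD-like receptor family gene. Cells of each genotype were left in medium or given lipopolysaccharide (LPS), the endotoxin of Gram-negative bacteria, for 12 h, with 3 libraries in each of the 4 groups.

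TNF superfamily ligands are mostly made as membrane proteins, bind as trimers, and signal through receptors that recruit TRAF adaptors or, where the receptor has a death domain, TRADD or FADD. The outcome can be NF-kappaB activation or cell death. In macrophages, LPS sensed by TLR4 is a classic inducer of Tnf, and the NF-kappaB target Tnfaip3, which encodes the ubiquitin-editing enzyme A20, feeds back to restrain the same pathway.

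The labels of the KO groups were checked first with Nlrc3 and with Nos2, the inducible nitric oxide synthase gene of LPS-stimulated macrophages. Nlrc3 stood at 9.89, 13.6 and 10.4 counts per 1000000 counts of the library (CPM) in WT medium, 0.796, 4.39 and 1.40 in WT LPS, 0.996, 0.850 and 0.876 in labelled KO medium and 15.6, 8.29 and 6.04 in labelled KO LPS. Under LPS it was thus higher in every library labelled KO than in every WT library, against the label. Nos2 lay between 1148 and 2717 CPM where labelled KO medium, and between 0.689 and 5.43 CPM where labelled KO LPS. Every direction below that involves the KO groups is therefore that of libraries labelled so. Library totals were 13082947 to 20960505 counts, and 3 counts corresponded to 0.143 to 0.229 CPM. Xist and Y-linked transcripts marked 5 libraries as female (WT medium 1 and 3, WT LPS 2, labelled KO LPS 2 and 3) and 7 as male, including all labelled KO medium. Whether the replicates of a group come from different animals is not stated in the labels, although the 3 groups with libraries of both sexes must hold more than 1 animal. The p-values cover the spread among these libraries alone, which may be technical where sex does not separate them, as in labelled KO medium.

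RefSeq promoter windows were at hand for 8 of the 10 genes (not for Cd40 and Tnfsf9). The 250 bases upstream of the starts of Tnf, Tnfrsf1b and Fas are shown, from build GRCm38.p6 and read 5′ to 3′ on the gene's strand. For these genes all 250 bases lay upstream of both annotated starts (RefSeq and GENCODE). Tnfsf10 and Tnfsf15 had shorter stretches of 201 and 196 bases. The genes shown were not the only ones that moved together in the comparisons below. Tnf is taken from chr17:35202008-35202257 (minus strand), Tnfrsf1b from chr4:145246871-145247120 (minus strand) and Fas from chr19:34290409-34290658 (plus strand). Capitals mark matches to the gamma-interferon activation site TTCNNNGAA (GAS) or the interferon-stimulated response element (ISRE), here GAAA repeated after a gap of any 2 bases, both searched on both strands.
Tnf: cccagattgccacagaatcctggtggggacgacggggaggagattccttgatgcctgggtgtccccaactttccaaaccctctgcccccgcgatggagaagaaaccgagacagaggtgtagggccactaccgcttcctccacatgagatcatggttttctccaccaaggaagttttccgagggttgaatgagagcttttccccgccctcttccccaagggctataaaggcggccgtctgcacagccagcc
Tnfrsf1b: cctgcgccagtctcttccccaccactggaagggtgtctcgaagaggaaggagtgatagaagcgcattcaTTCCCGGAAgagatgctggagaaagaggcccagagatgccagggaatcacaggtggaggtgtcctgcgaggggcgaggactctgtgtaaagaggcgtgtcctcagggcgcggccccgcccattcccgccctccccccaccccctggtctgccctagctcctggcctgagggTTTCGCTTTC
Fas: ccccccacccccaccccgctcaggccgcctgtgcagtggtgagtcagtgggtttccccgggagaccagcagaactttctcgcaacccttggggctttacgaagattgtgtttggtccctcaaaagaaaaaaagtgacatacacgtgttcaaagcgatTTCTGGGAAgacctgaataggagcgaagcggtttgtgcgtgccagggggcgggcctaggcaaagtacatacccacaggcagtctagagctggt
Tnfrsf1b held a GAS match beginning 181 bases before its start and an ISRE match, on the reverse strand, beginning 10 bases before it. Fas held a GAS match beginning 93 bases before its start, and the Tnf window held no match to either motif or to the NF-kappaB consensus (kappaB). Over whole windows of 300 bases (250 before the start to 50 after it), Tnfrsf1a also held a GAS match, Tnfaip2 held a kappaB match, and one of 2 Tnfaip3 windows held 2 kappaB matches, while Tnfsf10 and Tnfsf15 held none. Among all 32851 windows of that length, 8.30% held a GAS match, 3.44% an ISRE match and 8.46% a kappaB match. A match describes these letters and is no evidence of binding.

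All 10 genes passed the low-count filter, which kept 13773 genes. With LPS in WT cells, 9 of the 10 rose and none fell (edgeR quasi-likelihood test, Benjamini-Hochberg adjusted p under 0.05), where 11.9% of all tested genes rose and 6.46% fell. The median log2 fold of the 10 was 3.09, beside −0.0567 over all genes. In 8 of the 10, every WT LPS library lay above every WT medium library in CPM, against 9.87% of all genes. Cd40 rose most and Tnfrsf1a least, and Tnfaip2 did not pass the test. In the libraries labelled KO LPS, 9 of the 10 were lower than in WT LPS and none higher, where 13.7% of genes were lower and 10.4% higher. The median log2 fold of the 10 was here −3.38, and that of all genes 0.0649. In 8 of the 10, every labelled KO LPS library lay below every WT LPS library, against 10.9% of all genes. Since the 10 were chosen with earlier results of these data known, these shares describe them and are no test of the set. Folds were scaled by trimmed-mean (TMM) factors of 0.702 to 1.46 and CPM were not, so a fold need not equal the ratio of the CPM means. In such bulk samples, fewer cells of a type and less RNA per cell cannot be told apart.

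**Figure D1:**
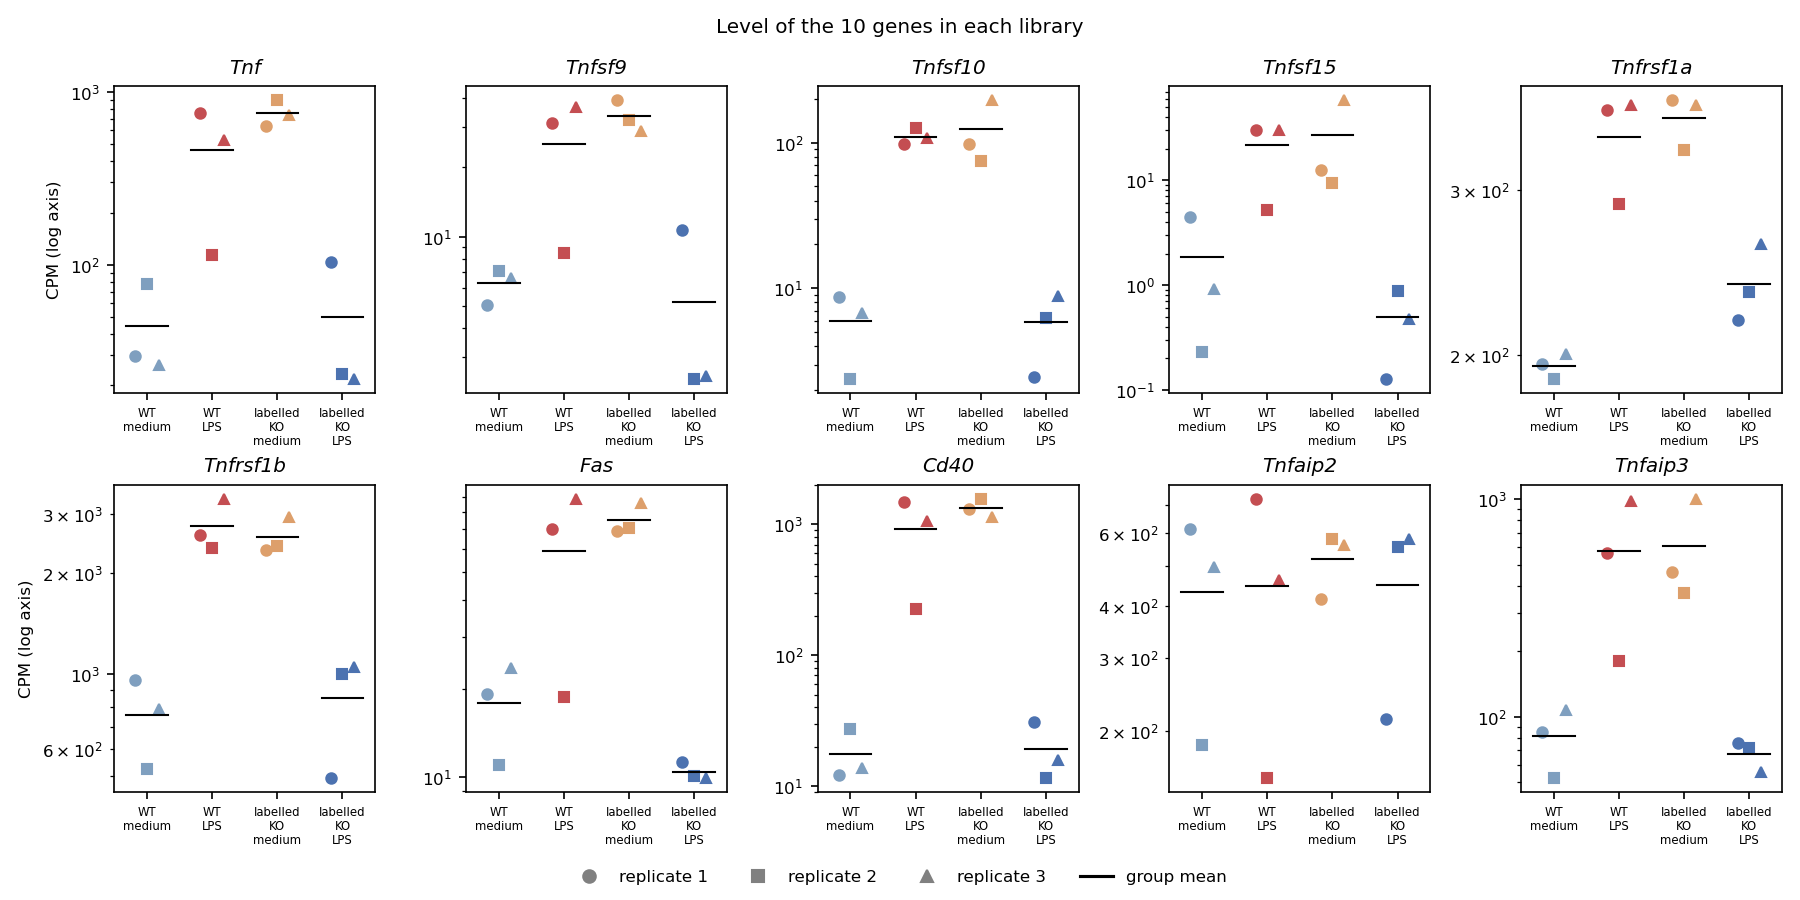
Level of each of the 10 genes in CPM (log axis) in every library, by labelled group; shapes mark replicates 1 to 3 and black lines the group means. For 9 genes the WT LPS and labelled KO medium means lie above the other 2, and WT LPS replicate 2 is the lowest of its group in 9 of 10 panels.

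Among the ligands, Tnf, the founding cytokine of the family (chromosome 17, 35199381 to 35202007, minus strand, GRCm38), differed strongly between libraries of one group. In WT medium libraries 1 to 3, Tnf stood at 29.8, 77.3 and 26.4 CPM, and in WT LPS libraries 1 to 3 at 754, 114 and 528 CPM. The libraries labelled KO medium held 641, 901 and 734 CPM, and those labelled KO LPS 104, 23.2 and 21.7 CPM. Every WT LPS library was above every WT medium library, but WT LPS 2 lay at 17.8% of the mean of the other 2, only a little above WT medium 2. Mean levels ± SD of the groups (n = 3 each) were 44.5 ± 28.4, 465 ± 325, 759 ± 132 and 49.6 ± 47.1 CPM in turn. With LPS in WT, Tnf rose by 3.98 ± 0.89 (log2 fold ± SE; edgeR's adjusted p = 0.00900). Set against WT LPS, it was lower in the libraries labelled KO LPS, by a log2 fold of −3.83 ± 0.88 (edgeR's adjusted p = 0.00911), and these groups did not overlap.

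Tnfsf9, which encodes 4-1BB ligand, a costimulator of T cells through Tnfrsf9, was the ligand with the smallest rise (chromosome 17, 57105325 to 57107757, plus strand). Its level in WT medium libraries 1 to 3 was 5.07, 7.11 and 6.64 CPM, and that in WT LPS libraries 1 to 3 was 31.1, 8.54 and 36.4 CPM. In the libraries labelled KO medium it was 39.2, 32.1 and 28.7 CPM, while labelled KO LPS libraries held 10.7, 2.40 and 2.49 CPM. Again WT LPS 2 was the low library of its group, and labelled KO LPS 1 overlapped it from the other side. Group means in that order were 6.27 ± 1.07, 25.4 ± 14.8, 33.3 ± 5.37 and 5.19 ± 4.75 CPM (SD, n = 3 each). Tnfsf9 rose with LPS in WT by 2.67 ± 0.68 (log2 fold ± SE; edgeR's adjusted p = 0.0172). The call ended without WT medium 1 (adjusted p = 0.0723), WT medium 3 (0.0655), WT LPS 1 (0.0552) or WT LPS 3 (0.0816). For labelled KO LPS against WT LPS the log2 fold of Tnfsf9 was −2.87 ± 0.68 (edgeR's adjusted p = 0.0107), and the call ended when only those 2 groups were fitted (adjusted p = 0.0530). Gm11110, a lincRNA on the opposite strand, overlaps Tnfsf9 by 618 bases, and no source used here says whether counting used strand.

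Tnfsf10 encodes TRAIL, a ligand of death receptors that type I interferon is known to induce (chromosome 3, 27317028 to 27342427, plus strand). WT medium libraries 1 to 3 had 8.76, 2.37 and 6.82 CPM of Tnfsf10, and WT LPS libraries 1 to 3 had 97.3, 125 and 107 CPM. Labelled KO medium libraries had 98.0, 75.1 and 196 CPM, and labelled KO LPS libraries 2.46, 6.28 and 8.80 CPM. It was the only one of the 10 genes in which WT LPS 2 was the highest of its group rather than the lowest, and the WT LPS and WT medium libraries lay far apart. Averaged by group in the same order, these were 5.98 ± 3.28, 109.9 ± 14.1, 123 ± 64.3 and 5.85 ± 3.19 CPM (SD, n = 3 each). Tnfsf10 rose with LPS in WT by 4.83 ± 0.55 (log2 fold ± SE; edgeR's adjusted p = 0.000187) and was lower in labelled KO LPS than in WT LPS, with a log2 fold of −4.74 ± 0.55 (edgeR's adjusted p = 0.000188).

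Tnfsf15 encodes TL1A, the ligand of death receptor 3, and was the least abundant of the 10 genes (chromosome 4, 63727084 to 63745113, minus strand). In WT medium libraries 1 to 3, Tnfsf15 stood at 4.46, 0.229 and 0.914 CPM, and in WT LPS libraries 1 to 3 at 30.1, 5.25 and 29.9 CPM. The libraries labelled KO medium held 12.6, 9.35 and 58.2 CPM, and those labelled KO LPS 0.126, 0.873 and 0.477 CPM. WT medium 2 had 3 counts and labelled KO LPS 1 had 2 counts, at or under the level of 3 counts, and the spread within groups was wide, with labelled KO medium 3 well above its 2 partners. Mean levels ± SD of the groups (n = 3 each) were 1.87 ± 2.27, 21.7 ± 14.3, 26.7 ± 27.3 and 0.492 ± 0.374 CPM in turn. With LPS in WT, Tnfsf15 rose by 4.23 ± 1.07 (log2 fold ± SE; edgeR's adjusted p = 0.0169), and without WT medium 3 the test was no longer passed (adjusted p = 0.0709), nor without WT LPS 3 (0.0551). Against WT LPS it was lower in labelled KO LPS, with a log2 fold of −6.03 ± 1.20 (edgeR's adjusted p = 0.00423).

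Of the receptors, Tnfrsf1a, the widely expressed death-domain receptor TNFR1 (chromosome 6, 125349362 to 125362484, plus strand), varied least. Its level in WT medium libraries 1 to 3 was 196, 188 and 200.4 CPM, and that in WT LPS libraries 1 to 3 was 365, 289.97 and 369.7 CPM. In the libraries labelled KO medium it was 375, 331 and 369.8 CPM, while labelled KO LPS libraries held 218, 234 and 263 CPM. All WT LPS and all labelled KO medium libraries lay above all others, and the groups did not overlap across that divide. Group means in that order were 195 ± 6.16, 342 ± 44.9, 358 ± 23.9 and 238 ± 22.7 CPM (SD, n = 3 each). Tnfrsf1a rose with LPS in WT by 1.42 ± 0.25 (log2 fold ± SE; edgeR's adjusted p = 0.00269). In labelled KO LPS against WT LPS the log2 fold was −1.06 ± 0.25 (edgeR's adjusted p = 0.0106). That call ended without labelled KO LPS 2 (adjusted p = 0.0527) and when libraries were scaled by their totals alone, which gave −0.52 (adjusted p = 0.0703).

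Tnfrsf1b, whose product TNFR2 lacks a death domain and binds TRAF2, was the more abundant TNF receptor in every library (chromosome 4, 145213463 to 145246870, minus strand). WT medium libraries 1 to 3 had 965, 523 and 791 CPM of Tnfrsf1b, and WT LPS libraries 1 to 3 had 2599.9, 2379 and 3321 CPM. Labelled KO medium libraries had 2346, 2408 and 2945 CPM, and labelled KO LPS libraries 491, 1005 and 1055 CPM. Here too the WT LPS and labelled KO medium libraries all lay above the others, and WT medium 2 and labelled KO LPS 1 were the low libraries of their groups. Averaged by group in the same order, these were 759.7 ± 223, 2767 ± 493, 2567 ± 329.6 and 850.3 ± 312 CPM (SD, n = 3 each). Tnfrsf1b rose with LPS in WT by 2.50 ± 0.36 (log2 fold ± SE; edgeR's adjusted p = 0.000695) and was lower in labelled KO LPS than in WT LPS, with −2.24 ± 0.35 (edgeR's adjusted p = 0.00120). Its GAS and ISRE matches are those in capitals above.

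Because the pair binds the same ligand, their ratio was taken within each library from the authors' FPKM values (fragments scaled by gene length and library total), which allow 2 genes to be compared per length. The ratio of Tnfrsf1b to Tnfrsf1a FPKM was 3.35, 1.89 and 2.68 in WT medium and 4.83, 5.57 and 6.10 in WT LPS. It was 4.25, 4.94 and 5.40 in labelled KO medium and 1.53, 2.92 and 2.72 in labelled KO LPS. Every WT LPS and every labelled KO medium library had a higher ratio than every library of the other 2 groups. Mean ratios ± SD over the 3 libraries of a group were 2.64 ± 0.732, 5.50 ± 0.638, 4.86 ± 0.581 and 2.39 ± 0.755 in the same order. A ratio within a library does not depend on the scaling between libraries, and 3 against 3 libraries cannot give an exact two-sided permutation p below 0.1, so no test was made.

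**Figure D2:**
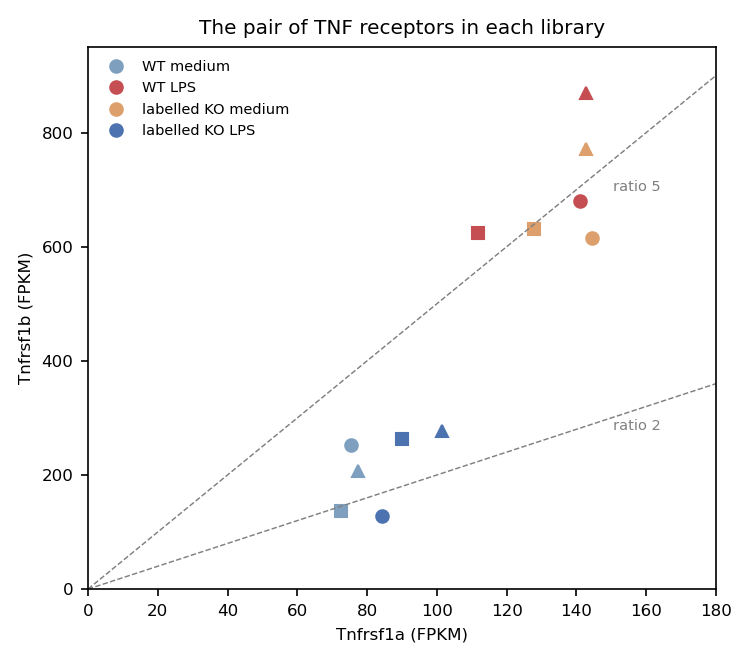
FPKM of Tnfrsf1b (vertical axis) against Tnfrsf1a (horizontal axis) in each of the 12 libraries, coloured by labelled group, with circles, squares and triangles for replicates 1, 2 and 3. Dashed lines mark ratios of 2 and 5; the WT LPS and labelled KO medium libraries lie near or above a ratio of 4.25 and the other libraries at or below 3.35.

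Fas, the death receptor CD95 for Fas ligand (chromosome 19, 34290666 to 34327772, plus strand), was the only called gene whose WT groups overlapped. In WT medium libraries 1 to 3, Fas stood at 19.3, 11.0 and 23.5 CPM, and in WT LPS libraries 1 to 3 at 69.8, 18.8 and 88.6 CPM. The libraries labelled KO medium held 68.8, 70.8 and 85.7 CPM, and those labelled KO LPS 11.2, 10.1 and 9.91 CPM. WT LPS 2, at 23.7% of the mean of the other 2, lay below WT medium 1 and 3, whereas the labelled KO LPS libraries were close together and near WT medium 2. Mean levels ± SD of the groups (n = 3 each) were 17.9 ± 6.36, 59.1 ± 36.1, 75.1 ± 9.20 and 10.4 ± 0.716 CPM in turn. Fas rose with LPS in WT by 2.43 ± 0.50 (log2 fold ± SE; edgeR's adjusted p = 0.00576) and was lower in labelled KO LPS than in WT LPS, with −3.09 ± 0.51 (edgeR's adjusted p = 0.00159). Gm27818, a short RNA gene on the same strand, overlaps Fas by 159 bases.

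Cd40, the costimulatory receptor through which T cells license antigen-presenting cells, moved most (chromosome 2, 165055627 to 165072948, plus strand). Its level in WT medium libraries 1 to 3 was 12.0, 27.1 and 13.7 CPM, and that in WT LPS libraries 1 to 3 was 1489, 224 and 1066 CPM. In the libraries labelled KO medium it was 1311, 1565 and 1143 CPM, while labelled KO LPS libraries held 30.8, 11.4 and 15.7 CPM. WT LPS 2 was the low library of its group, yet remained above every WT medium and every labelled KO LPS library. Group means in that order were 17.6 ± 8.28, 927 ± 644, 1339 ± 212 and 19.3 ± 10.2 CPM (SD, n = 3 each). Cd40 rose with LPS in WT by 6.34 ± 0.83 (log2 fold ± SE; edgeR's adjusted p = 0.000432), a fold of 81.1. From WT LPS to labelled KO LPS its log2 fold was −6.19 ± 0.83 (edgeR's adjusted p = 0.000455).

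Tnfaip3, the A20 feedback gene (chromosome 10, 19000910 to 19015657, minus strand), rose in the same groups as the ligands. WT medium libraries 1 to 3 had 85.4, 52.1 and 108 CPM of Tnfaip3, and WT LPS libraries 1 to 3 had 565, 181 and 981 CPM. Labelled KO medium libraries had 463, 371 and 1003 CPM, and labelled KO LPS libraries 75.4, 71.5 and 55.7 CPM. The WT LPS libraries spread widely, with WT LPS 2 lowest, and none overlapped WT medium or labelled KO LPS. Averaged by group in the same order, these were 81.7 ± 28.0, 576 ± 399.99, 612 ± 341 and 67.5 ± 10.4 CPM (SD, n = 3 each). Tnfaip3 rose with LPS in WT by 3.52 ± 0.60 (log2 fold ± SE; edgeR's adjusted p = 0.00207) and was lower in labelled KO LPS than in WT LPS, with −3.68 ± 0.60 (edgeR's adjusted p = 0.00154).

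Tnfaip2, a TNF-induced gene named for its discovery in TNF-treated endothelial cells, was the exception (chromosome 12, 111442469 to 111455018, plus strand). In WT medium libraries 1 to 3, Tnfaip2 stood at 613, 185 and 498 CPM, and in WT LPS libraries 1 to 3 at 725, 154 and 463 CPM. The libraries labelled KO medium held 416, 582 and 561 CPM, and those labelled KO LPS 215, 556 and 579.7 CPM. A low library stood out in each of 3 groups, namely WT medium 2, WT LPS 2 and labelled KO LPS 1, and all 4 groups overlapped. Mean levels ± SD of the groups (n = 3 each) were 432 ± 222, 448 ± 286, 519.8 ± 90.4 and 449.97 ± 204 CPM in turn. The LPS difference in WT was 0.79 ± 0.58 (log2 fold ± SE, 95% interval −0.48 to 2.06; edgeR's adjusted p = 0.388). From WT LPS to labelled KO LPS it was −0.60 ± 0.58 (95% interval −1.87 to 0.67; edgeR's adjusted p = 0.485). Neither interval excludes a change of more than 2-fold. The values moved with the sex of the libraries fitted, an alternative chosen after seeing the data. With the male libraries alone, where WT medium is the single low library 2, Tnfaip2 rose with LPS in WT by 2.17 (edgeR's adjusted p = 0.0298). With the female libraries alone, where WT LPS is the single low library 2, the log2 fold was −1.42 (edgeR's adjusted p = 0.00734). From WT LPS to labelled KO LPS the log2 fold was −2.06 in males, where labelled KO LPS is the single low library 1. In females it was 1.50, again with WT LPS 2 alone. Each lone library is assumed to vary like those of the other groups, and sex and the low libraries cannot be told apart there. Gm40578, an antisense gene, overlaps Tnfaip2 by 4614 bases.

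Most of the 10 genes shared the low library in WT LPS and in WT medium, but not in the groups labelled KO. In labelled KO medium, libraries 1 to 3 were lowest in 4, 4 and 2 of the genes. WT LPS 2 was lowest in 9 of the 10, at 17.5% of the mean of the other 2 for Cd40, 17.5% for Tnfsf15, 23.4% for Tnfaip3 and 25.9% for Tnfaip2, but at 78.9% and 80.4% for the TNF receptors. WT medium 2 was lowest in 7, among them Tnfsf10 at 30.4% and Tnfaip2 at 33.3%, and highest in the other 3, Tnf, Tnfsf9 and Cd40. Labelled KO LPS 1 was lowest in 5 (Tnfsf10, Tnfsf15, Tnfrsf1a, Tnfrsf1b and Tnfaip2) and highest in 5 (Tnf, Tnfsf9, Fas, Cd40 and Tnfaip3). Nlrc3 also differed in these libraries, since WT LPS 2 had 4.39 CPM beside 0.796 and 1.40 in its partners. With these 3 libraries left out together, an alternative chosen after seeing the data, 9 of the 10 genes rose with LPS in WT, where 19.7% of all tested genes rose, and 9 were lower in labelled KO LPS than in WT LPS, where 23.7% of all genes were lower. The remaining WT medium and labelled KO LPS libraries are all female and the remaining WT LPS and labelled KO medium libraries all male, so that sex and these differences cannot be told apart in that setting.

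**Figure D3:**
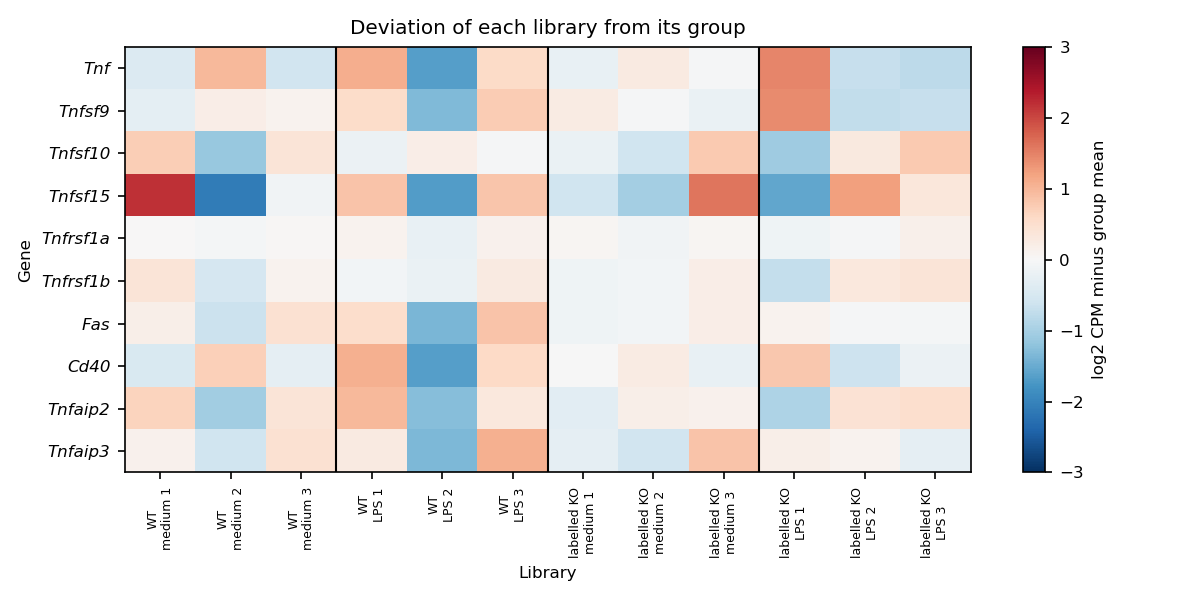
Deviation of log2 CPM from the group mean (colour, red above and blue below) for the 10 genes (rows) in the 12 libraries (columns, grouped by label). WT LPS 2 is blue in every row but Tnfsf10, while WT medium 2 and labelled KO LPS 1 each hold red and blue rows.

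In medium, the libraries labelled KO differed from WT in the direction that LPS took in WT. Of the 10 genes, 9 were higher in labelled KO medium than in WT medium and none lower, where 14.0% of all genes were higher and 12.3% lower (edgeR, Benjamini-Hochberg adjusted p under 0.05). The median log2 fold was 3.48 beside −0.0223 over all genes. Cd40 differed most, by 7.01 ± 0.86 (log2 fold ± SE; edgeR's adjusted p = 0.000222), followed by Tnfsf10 with 5.20 ± 0.56 (0.000115) and Tnf with 4.83 ± 0.92 (0.00311). Tnfrsf1a differed least among the called genes, with 1.70 ± 0.26 (edgeR's adjusted p = 0.000816). The others called were Tnfsf15 with 4.61 ± 1.09, Tnfaip3 with 3.74 ± 0.60, Tnfsf9 with 3.23 ± 0.69, Fas with 2.93 ± 0.51 and Tnfrsf1b with 2.60 ± 0.36. Tnfaip2 did not pass, with 1.15 ± 0.59 (edgeR's adjusted p = 0.172), but did without the 3 libraries named above (0.79, adjusted p = 0.0416).

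Between labelled KO LPS and labelled KO medium, 9 of the 10 genes were lower in LPS and none higher, where 15.3% of all genes were lower and 15.1% higher (edgeR, Benjamini-Hochberg adjusted p under 0.05). The median was −3.74 beside 0.0383. Log2 folds ran from −6.86 ± 0.85 (SE) for Cd40, −6.40 ± 1.21 for Tnfsf15 and −5.11 ± 0.56 for Tnfsf10 to −1.34 ± 0.25 for Tnfrsf1a, and Tnfaip2 stood at −0.96 ± 0.59 (edgeR's adjusted p = 0.235). The direction is opposite to that of LPS in WT, and the interaction term, the LPS difference in labelled KO minus that in WT, was below 0 and called for the same number of genes, 9 of 10, where 20.6% of all genes had a lower and 20.5% a higher term. It ran from −13.21 ± 1.19 for Cd40 to −2.76 ± 0.36 for Tnfrsf1a. For Tnfaip2 it was −1.75 ± 0.83 (edgeR's adjusted p = 0.111), and it was called without WT LPS 2, at −2.19 (edgeR's adjusted p = 0.0195). These comparisons share libraries with those above, so their values are given side by side and are not independent of one another.

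The 4 groups were also compared across both label and treatment. Between labelled KO medium and WT LPS, 0 of the 10 genes passed in edgeR and 0 in DESeq2, where 0.00% of all genes passed in each. An unadjusted edgeR p under 0.05 was found for 0 of the 10, and the share of all genes with such a p was not counted. Log2 differences ran from 0.0971 ± 0.34 for Tnfrsf1b to 0.84 ± 0.79 for Tnf (± SE), with 95% intervals of −0.88 to 2.57 for Tnf, −0.77 to 2.11 for Cd40, −1.64 to 2.39 for Tnfsf15 and −0.27 to 0.82 for Tnfrsf1a. Intervals of this width do not show that the groups are alike. Between labelled KO LPS and WT medium, 0 of the 10 passed in edgeR and 0 in DESeq2, where 0.00% and 0.290% of all genes passed. Again 0 of the 10 had an unadjusted edgeR p under 0.05, with no count of that kind over all genes. Tnfsf15 stood at −1.79 ± 1.10 (95% interval −4.19 to 0.60), Fas at −0.66 ± 0.48 (−1.70 to 0.38) and Tnfrsf1a at 0.36 ± 0.25 (−0.18 to 0.91). Tnfrsf1a was the only one of the 10 whose libraries did not overlap here, with all 3 labelled KO LPS libraries higher, as in 4.74% of all genes. Without WT medium 2, WT LPS 2 and labelled KO LPS 1, where both groups are all female, 5.61% of all genes were called lower in labelled KO LPS and 1.94% higher. Of the 10, 2 were then lower and 0 higher, namely Fas (−1.03; edgeR's adjusted p = 0.0242) and Tnfsf9 (−1.19; edgeR's adjusted p = 0.0341).

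**Figure D4:**
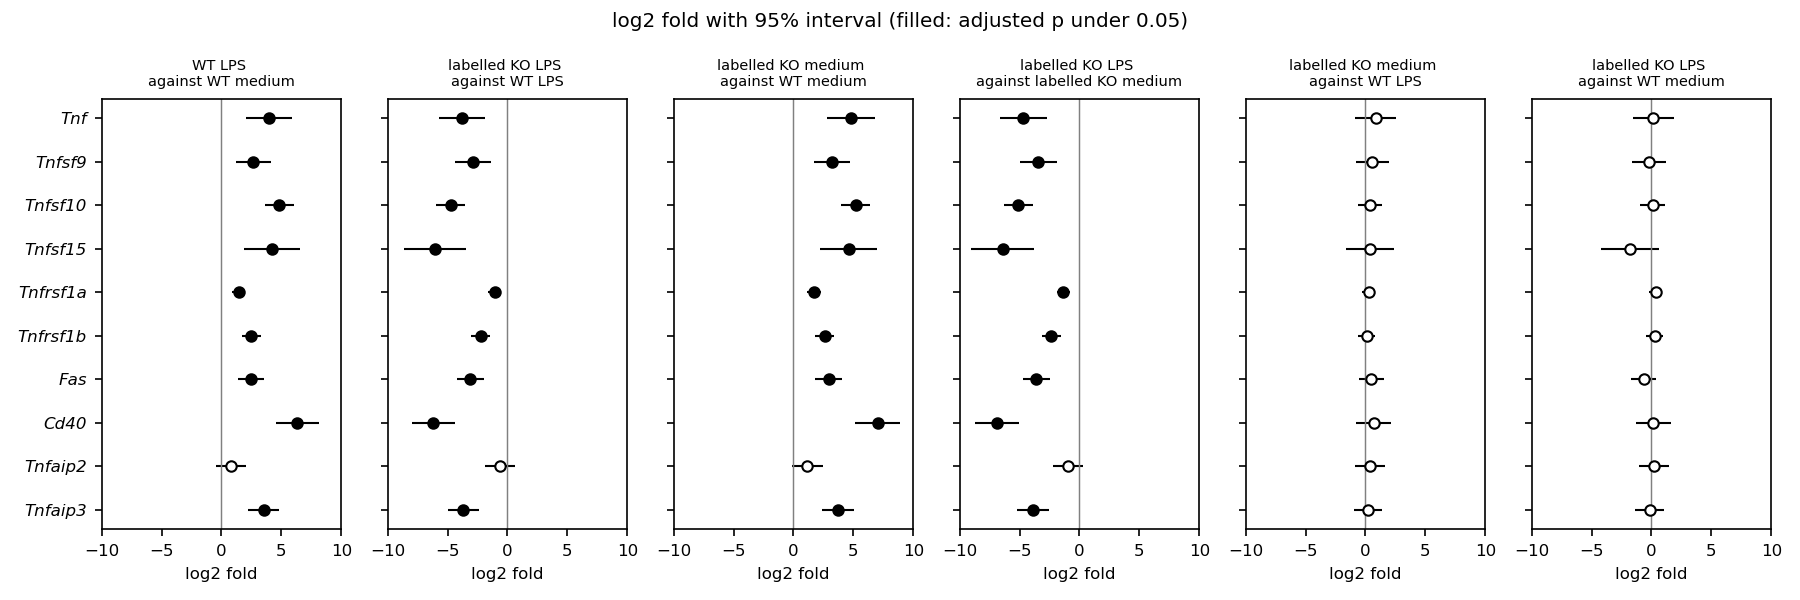
Log2 fold of the 10 genes with its 95% interval in 6 comparisons of the labelled groups, from one edgeR fit; filled points have a Benjamini-Hochberg adjusted p under 0.05. In the first 4 panels 9 genes are filled, all on one side of 0 and with Tnfaip2 open, and in the last 2 panels all points are open and every interval spans 0, the largest difference being that of Tnfsf15 (−1.79) in labelled KO LPS against WT medium.

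Per length, Tnfrsf1b was the most abundant of the 10 in all groups by its mean FPKM, with 199 ± 58.3 in WT medium and 725 ± 129 in WT LPS (SD, n = 3 each). In WT medium Tnfaip2 (86.7 ± 44.5 FPKM) and Tnfrsf1a (75.2 ± 2.38) came next and overlapped, then Tnf (27.1 ± 17.4), while Cd40 (5.18 ± 2.43) and Tnfsf9 (4.86 ± 0.826) overlapped further down. In WT LPS the next 2 places went to Tnf (284 ± 198 FPKM) and Cd40 (272 ± 189), which did not differ beyond their spread. Labelled KO medium had the same leading 3, with Tnf at 463 ± 80.4 and Cd40 at 393 ± 62.4 FPKM. Labelled KO LPS had Tnfrsf1b, Tnfrsf1a (91.9 ± 8.75) and Tnfaip2 (90.3 ± 41.0) in front. Tnfsf15 was last in all 4 groups, at 6.50 ± 4.27 FPKM in WT LPS, and Tnfsf9, Tnfsf10 and Tnfsf15 had the lowest 3 means in each group. Single libraries could differ, as Tnfsf9 lay above Cd40 in WT medium 1 (3.93 and 3.54 FPKM) and above Fas in labelled KO LPS 1 (8.27 and 6.24).

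The rest of the family was read from 3 lists, also chosen with earlier results of these data known. Of 14 other TNF superfamily ligands, 8 passed the low-count filter, and with LPS in WT 3 rose (37.5%, all genes 11.9%), 2 fell (25.0%, all genes 6.46%) and 3 did not pass the test (median log2 fold 0.83, all genes −0.0567). Those that rose started low, Tnfsf4 and Lta from near the level of 3 counts. Tnfsf4 (OX40 ligand) went from 0.307, 0.306 and 0.183 to 17.0, 1.10 and 4.56 CPM (edgeR's adjusted p = 0.00251), Lta (lymphotoxin alpha) from 0.205, 0.229 and 0.0609 to 3.19, 0.906 and 2.19 CPM (0.00258), and Tnfsf8 (CD30 ligand) from 1.59, 0.306 and 1.22 to 19.0, 3.53 and 4.74 CPM (0.00358). The ligands that fell were Tnfsf12 (TWEAK), from 50.4, 90.96 and 39.3 to 19.0, 11.3 and 7.18 CPM, by 1.72 ± 0.54 on the log2 scale (0.0465), and Tnfsf13 (APRIL), from 2.97, 3.21 and 3.66 to 0.664, 0.620 and 0.486 CPM (0.0186). In labelled KO LPS against WT LPS, the same 5 ligands were called, each in the opposite direction, with −6.04 ± 1.00 for Tnfsf4, −3.20 ± 0.69 for Lta, −3.85 ± 0.72 for Tnfsf8, 1.95 ± 0.55 for Tnfsf12 and 1.85 ± 0.48 for Tnfsf13 (log2 fold ± SE). That comparison shares the WT LPS libraries with the first.

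Of 24 other TNF receptor superfamily genes, 19 passed the filter, and with LPS in WT 3 rose, 0 fell and 16 did not pass the test (median 0.46). The share that rose, 15.8%, was near that of all genes, 11.9%. Tnfrsf8 (CD30), the receptor of Tnfsf8, went from 1.998, 1.91 and 1.10 to 29.2, 9.16 and 22.9 CPM, a log2 fold of 4.25 ± 0.56 (edgeR's adjusted p = 0.000432). Tnfrsf9 (4-1BB), the receptor of Tnfsf9, went from 1.49, 1.83 and 0.975 to 6.30, 5.30 and 12.8 CPM (3.09 ± 0.58, adjusted p = 0.00379). Tnfrsf11b (osteoprotegerin) had at most 2.55 CPM in any library. Scaling by library totals alone called 5 receptors, 3 higher (all genes 7.50%) and 2 lower (all genes 23.2%). Leaving out the 3 libraries named above called 6, 4 higher (all genes 19.7%) and 2 lower (all genes 19.6%). Between labelled KO LPS and WT LPS, 3 receptors were lower in the former, the same Tnfrsf8 (−4.01 ± 0.55), Tnfrsf9 (−2.66 ± 0.57) and Tnfrsf11b (−3.81 ± 1.00), and 1 was higher, Tnfrsf21, death receptor 6 (1.59 ± 0.36), with a median of −0.21. The share lower was 15.8%, beside 13.7% of all genes. Without the 3 libraries 5 were lower (all genes 23.7%) and 3 higher (all genes 20.1%).

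All 37 genes of TNF receptor signalling and feedback passed the filter. With LPS in WT, 13 rose (35.1%, all genes 11.9%), 0 fell and 24 did not pass the test (median 0.56, all genes −0.0567). The smallest p belonged to Cflar, which encodes the caspase-8 inhibitor c-FLIP, at 174, 77.1 and 188 CPM in WT medium and 596, 588 and 733 in WT LPS, a log2 fold of 2.78 ± 0.33 (edgeR's adjusted p = 0.000213). Rnf31, the catalytic subunit of the linear ubiquitin ligase complex, went from 49.0, 30.9 and 45.3 to 122, 108 and 119.6 CPM (2.11 ± 0.26, adjusted p = 0.000290). Traf2, an adaptor that both TNF receptors use, went from 24.2, 22.5 and 28.1 to 87.3, 53.6 and 77.0 CPM (2.18 ± 0.29, adjusted p = 0.000490). For these 3 genes no WT LPS library overlapped WT medium. The other 10 that rose were Traf1 (4.56), Tnip3 (3.07), Tnip1 (2.91), Rhbdf2 (2.43), Tax1bp1 (2.36), Zfp36 (2.33), Traf5 (2.05), Casp8 (1.97), Tnip2 (1.89) and Map3k8 (1.75). Tnip1, Tnip2, Tnip3 and Tax1bp1 encode partners of A20, and Zfp36 encodes tristetraprolin, which destabilises Tnf mRNA. In labelled KO LPS against WT LPS, 16 were lower (43.2%, all genes 13.7%), 1 (Tab1, 0.99 ± 0.33) was higher and 20 did not pass (median −0.80, all genes 0.0649), with Cflar at −3.26 ± 0.33, Rnf31 at −1.94 ± 0.26 and Traf2 at −1.91 ± 0.29. In labelled KO medium against WT medium, 13 were higher (35.1%, all genes 14.0%) and 0 lower (all genes 12.3%). Of the other ligands 3 were higher (37.5%) and 1 lower there, and of the other receptors 2 were higher (10.5%) and 1 lower. With library totals alone 13 signalling genes were higher and 5 lower and 2 receptors higher and 4 lower. Of all genes, 7.77% were then higher and 40.5% lower. DESeq2 called 4 receptors higher and 2 lower, where 16.7% of all genes were higher and 16.8% lower. Under scaling by library totals alone the WT comparison had 11 signalling genes higher and 3 lower, where 7.50% of all genes were higher and 23.2% lower.

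**Figure D5:**
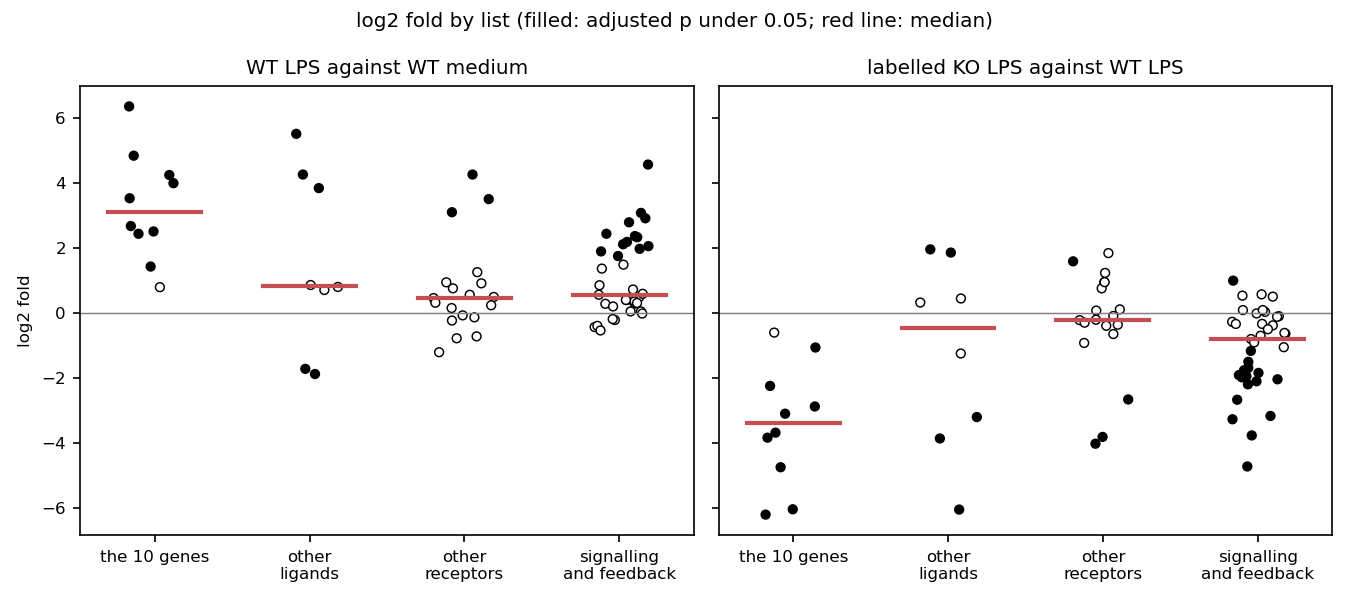
Log2 fold of each tested gene in 4 lists (points; filled where the edgeR adjusted p is under 0.05; red line, the list's median) for WT LPS against WT medium (left) and labelled KO LPS against WT LPS (right). The 10 genes have medians of 3.09 and −3.38, and the other lists have medians nearer 0. All were chosen with earlier results of these data known, so this difference is no test of the 10 genes against the family.

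Marker genes of macrophages and of other marrow cells were summed in each library. The 8 macrophage markers had counts in all libraries and summed to 32183 to 35761 CPM in WT medium, 12619.8 to 19337 in WT LPS, 10062 to 12947 in labelled KO medium and 21231 to 34432 in labelled KO LPS, so that every sum in WT LPS and labelled KO medium, where the TNF genes were higher, was below every sum of the other groups. In the TMM-scaled fit 1 of the 8 rose with LPS in WT, 0 fell and 7 did not pass. The sums of the 10 neutrophil markers were 829 to 1228 CPM in WT medium, 956 to 4376 in WT LPS, 1091 to 3106 in labelled KO medium and 1103 to 6898 in labelled KO LPS. Those of the 8 B cell markers were 8.03 to 13.2 CPM in WT medium, 5.53 to 12.4 in WT LPS, 4.20 to 7.21 in labelled KO medium and 13.1 to 87.1 in labelled KO LPS, and Igll1 had a count of 0 in all libraries of both medium groups. The 10 T and NK cell markers summed to 3.21 to 18.4 CPM in WT medium, 11.8 to 23.6 in WT LPS, 14.9 to 34.9 in labelled KO medium and 4.42 to 28.6 in labelled KO LPS. For the 7 dendritic cell markers the sums were 3.06 to 11.6 CPM in WT medium, 14.6 to 28.9 in WT LPS, 11.6 to 23.7 in labelled KO medium and 10.3 to 51.7 in labelled KO LPS, with Xcr1 at 0 in all WT medium libraries, and for the 7 stromal markers 65.4 to 152 CPM in WT medium, 47.0 to 354 in WT LPS, 51.6 to 171 in labelled KO medium and 41.6 to 104 in labelled KO LPS. The neutrophil, T and NK cell and stromal sums overlapped between all groups. In labelled KO LPS against WT LPS, 3 of 9 tested neutrophil, 2 of 6 B cell and 2 of 6 dendritic markers were higher and 0 lower. Of 8 macrophage markers 1 was higher and 2 lower, of 7 stromal markers 3 were lower, and 0 of 9 T and NK cell markers passed. Of all genes, 10.4% were higher and 13.7% lower. In labelled KO LPS against WT medium, 0 markers of any list passed the test in the TMM-scaled fit, where 0.00% of all genes passed. The unadjusted edgeR p was under 0.05 for 9 of 9 tested neutrophil, 6 of 6 B cell and 4 of 6 dendritic markers. Their median log2 folds were 2.65, 2.78 and 2.18, beside 0.0407 over all genes. Of the macrophage, T and NK cell and stromal markers, 0 had such a p. The share of all genes with such a p was not counted, so these counts have no background beside them. In labelled KO LPS the high neutrophil, B cell and dendritic sums came from libraries 2 and 3, and the part of any of these markers in the results on the TNF genes was not tested. A term for sex in the fit left 9 of the 10 genes called in each of the 5 comparisons that had 9. With that term, 24.1% to 39.1% of all genes were called. With the male libraries alone, all 10 were called in these 5 comparisons, where 10.3% to 26.4% of all genes were called. WT medium is then library 2 only and labelled KO LPS library 1 only, so each of the 5 rests on a group of 1 library that stood apart. With the female libraries alone, where WT LPS is library 2 only, 7 of the 10 rose with LPS in WT beside 15.6% of all genes, Tnfaip2 fell beside 15.2%, and Fas (0.26) and Tnfsf15 (1.36) did not pass. No library labelled KO medium was female, so that group has no such value.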

How the data were processed

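RNA sequencing counts and FPKM values of 12 libraries were used. In the deposited table, read counts are whole numbers for each gene, not normalized by the authors. The deposited FPKM table was made by the authors from the same libraries. For genes with high counts in all 12 libraries, its ratio to counts scaled by library total was constant across libraries to within 0.00466%. It is therefore no independent measurement. The gene lengths behind it, and genes with fewer counts, were not checked. The submitters' processing notes name the build mm10. For the aligner, counter, annotation and strand setting nothing is stated in the sources used here. Per the labels' protocols, both an Illumina TruSeq and a KAPA Stranded kit are named. Positions are from GENCODE M21, which matched 54409 of 54446 identifiers.

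Groups follow the labels. Counts were fitted with edgeR 4.0.16 in R 4.3.3 (TMM, filterByExpr, glmQLFit and glmQLFTest, 1 mean per group over all 12 libraries), with Benjamini-Hochberg adjustment over 13773 genes and calls at an adjusted p under 0.05. SEs were derived from the F statistic. The 10 genes and the lists were chosen with earlier results of these data known. Named genes are the 10, Nlrc3 and Nos2, and from each other TNF list up to 3 rising and 3 falling called genes of smallest p with LPS in WT; other list genes were named after their values were seen. The level of 3 counts covers counting error alone, while intervals cover the spread among these libraries as the fit estimated it. PCR copies were not marked. The most similar replicates still differed by more than sampling noise, with a chi-square per degree of freedom of at least 24.3. Alternatives were DESeq2 1.42.0, other scalings, no filter, fewer groups, a replicate block, a sex term and libraries left out. The test code was checked on simulated data.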

Additional observations from a re-analysis of the deposited data

Results flagged for a closer look

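The LPS effect differed between the labelled genotypes for 9 of the 10 genes, where it did so for 41.1% of all genes. The measure was the interaction term of the edgeR fit, called at a Benjamini-Hochberg adjusted p under 0.05. Its log2 value, the LPS difference in the libraries labelled KO minus that in WT, was −13.21 for Cd40, −10.64 for Tnfsf15, −9.94 for Tnfsf10, −8.65 for Tnf and −7.41 for Tnfaip3. It was −6.10 for Tnfsf9, −6.02 for Fas, −4.84 for Tnfrsf1b and −2.76 for Tnfrsf1a. Nlrc3 and Nos2 stood in the libraries labelled KO medium near their WT LPS levels and in those labelled KO LPS near their WT medium levels, so each direction here is that of the libraries as labelled.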

How the results depend on the processing

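The count of 9 called genes in 5 comparisons held under DESeq2, other scalings, no filter and a sex term. The exception was labelled KO LPS against WT LPS, with 8 under library totals alone (all genes 34.0%) or only those groups fitted (16.8%). With DESeq2, 25.7% to 46.6% of all genes were called in the 5 comparisons, and with library totals alone 30.7% to 59.1%. DESeq2 size factors gave 18.5% to 41.2%, no filter 9.78% to 21.8% and a sex term 24.1% to 39.1%. Leaving out 1 library gave 7 to 9 in WT LPS against WT medium (all genes 9.71% to 21.3%). It gave 8 to 9 in labelled KO LPS against WT LPS (12.7% to 28.7%) and 9 to 10 for the interaction (33.0% to 44.2%). Between labelled KO LPS and WT medium, 2 genes were called without the 3 libraries that stood apart (WT medium 2, WT LPS 2 and labelled KO LPS 1). Of all genes, 7.55% were called in that setting. In females alone, a fit with 1 WT LPS library, the log2 folds of those 2 genes were −1.19 (Tnfsf9) and −1.04 (Fas). Leaving out those 3 libraries, and splitting by sex, were chosen after seeing the data. The cause of these changes was not tested.

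Same-numbered libraries did not deviate together throughout (correlations −0.63 to 0.57, 8 of 18 over 0.1, and 14 of 36 closest to their own number). Between libraries numbered 3 all correlations were above 0, from 0.0895 to 0.57. Whether a number marks a pairing or a shared batch was not tested. With a replicate block, 9 of the 10 genes were called in each of those 5 comparisons and 0 in the other 2. Of all genes, 15.5% to 38.4% were called in the 5 and 0.00% in the other 2. Tnf in labelled KO LPS against WT medium was then −0.13 in place of 0.16.

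Counts over all genes moved more. WT LPS against WT medium gave 2526 genes, 4233 with library totals alone, 1590 with only those groups, 5517 without the 3 libraries, 1445 in males, 4528 in females and 1384 to 3042 without 1 library. Labelled KO LPS against WT LPS gave 3324, then 2185 with only those groups, 6162 without the 3 libraries, 1480 in males, 6868 in females and 1810 to 4093 without 1. Labelled KO medium against WT medium gave 3620, then 6644 with totals alone, 6756 without the 3, 1730 in males and 2196 to 4735 without 1. Labelled KO LPS against labelled KO medium gave 4186, then 6494, 7047, 1778 and 2543 to 5095 in the same settings. The interaction gave 5657, and 3701 in males. Labelled KO medium against WT LPS gave 0, 3 with no filter and 0 to 2 without 1. Labelled KO LPS against WT medium gave 0, 40 with DESeq2, 99 with no filter, 1060 without the 3, 4311 in females and 0 to 245 without 1. With totals alone, the share of called genes that were higher moved from 64.8% to 24.4% in WT LPS against WT medium, from 43.2% to 74.5% in labelled KO LPS against WT LPS, from 53.4% to 16.1% in labelled KO medium against WT medium, from 49.7% to 81.9% in labelled KO LPS against labelled KO medium and from 49.9% to 81.1% for the interaction. The median over all genes was then −0.64, 0.57, −0.85, 0.78 and 1.43.

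Signs turned only for values that had not passed the test in the main fit. Tnfaip2 was −1.42 in females for WT LPS against WT medium. For labelled KO LPS against WT LPS it was 0.00832 with totals alone, 1.50 in females and −1.05 to 0.0103 without 1 library. In males it kept its sign there, at −2.06, and each of these fits by sex has a group of 1 library. In labelled KO medium against WT LPS, Tnfsf15, Tnfrsf1b, Tnfaip2 and Tnfaip3 were −0.10, −0.0588, −0.0468 and −0.22 without the 3 libraries and −0.0976, −0.0588, −0.0456 and −0.22 in males, and Tnfrsf1b was −0.11 with totals alone. Without 1 library, the ranges there were −0.0434 to 0.57 for Tnfsf10, −0.76 to 0.75 for Tnfsf15, −0.0958 to 0.28 for Tnfrsf1b, −0.0967 to 0.98 for Tnfaip2 and −0.25 to 0.84 for Tnfaip3. In labelled KO LPS against WT medium, Tnf was −0.0126 with a sex term, −0.27 without the 3 libraries and −0.27 in females. Tnfsf10 was −0.0380 with totals alone, −0.0176 with only those groups, −0.0479 in males and −0.00276 in females. In males Tnfsf9 was 0.48, Tnfrsf1b −0.20 and Tnfaip3 0.43. Without 1 library the ranges were −1.01 to 1.00 for Tnf, −1.30 to 0.15 for Tnfsf9, −0.32 to 0.46 for Tnfsf10, −0.38 to 0.75 for Cd40 and −0.19 to 0.52 for Tnfaip2. Of the 10, Tnfsf15 had the fewest counts in labelled KO LPS, 2 to 16. Among the list genes, Tnfsf4 had 1 to 5 counts there and Lta 1 to 4 in WT medium, so depth limits their folds too.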

Other observations

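The ratio of Tnfsf9 to Tnf, a pair picked after the values were seen, varied little within labelled KO LPS although both genes differed more than 4-fold between those libraries. The FPKM ratio was 0.130, 0.132 and 0.146 in labelled KO LPS 1 to 3, while Tnf ran from 13.2 to 63.4 FPKM and Tnfsf9 from 1.86 to 8.27 FPKM. It was 0.216, 0.117 and 0.319 in WT medium, 0.0525, 0.0954 and 0.0877 in WT LPS and 0.0778, 0.0453 and 0.0497 in labelled KO medium. All labelled KO LPS libraries had a higher ratio than all WT LPS and labelled KO medium libraries. The ratio of Tnfaip3 to Tnf FPKM, of the feedback gene to the cytokine, was 0.650, 0.153 and 0.924 in WT medium, 0.170, 0.361 and 0.422 in WT LPS, 0.164, 0.0933 and 0.310 in labelled KO medium and 0.165, 0.699 and 0.583 in labelled KO LPS, and all groups overlapped.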
